A study of Mus musculus with 6 samples.

Results

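The cells described here are the 98 cell barcodes that the authors placed in cluster 4 of 5, out of 5160 barcodes of germ cells from fetal mouse testes. Membership was taken from the cluster number that the authors deposited for each barcode, at a clustering resolution of 0.2, and not from any new clustering. The authors gave the clusters no cell type names. Cluster 4 was the smallest: clusters 0, 1, 2 and 3 held 2210, 1863, 640 and 349 barcodes.

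All samples were male germ cells at embryonic day 14.5 (E14.5) from mice of a mixed C57/B6 and 129 background. The cells were FACS-sorted on the red fluorescence of tdTomato and loaded on the 10X Genomics Chromium system with v2 chemistry, which counts transcript molecules by unique molecular identifiers (UMIs). The 3 control samples carry the genotype label wildtype, and the 3 other samples are labelled Rb1 cKO. Rb1 is the retinoblastoma gene and cKO stands for a conditional knockout. The labels name neither the Cre driver nor the floxed part of Rb1, and they do not say whether the controls carried any of the alleles that make the cells fluoresce. Nor do they say whether a sample was 1 animal or a pool, so the spread between samples may be technical.

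Fetal male germ cells divide until about this age and then arrest. Cells of this lineage are known to be sensitive to DNA damage, and p53, the transcription factor encoded by Trp53, is the best known mediator of the response. Stabilised p53 binds response elements near its target genes and raises their transcription: Cdkn1a, which blocks cyclin-dependent kinases, Mdm2, the ubiquitin ligase that returns p53 to low levels, and pro-apoptotic genes such as Bbc3. The retinoblastoma protein acts further down the same chain, where it holds E2F transcription factors inactive.

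Cluster 4 was present in every sample at a similar share. It held 13 of 784, 10 of 430 and 27 of 1354 barcodes in controls 1 to 3, or 1.66%, 2.33% and 1.99%. It held 10 of 480, 18 of 948 and 20 of 1164 barcodes in cKO 1 to 3, or 2.08%, 1.90% and 1.72%. The 95% Wilson intervals, which cover counting error only, ran from 0.972% at the lowest bound to 4.23% at the highest, and the groups overlapped. The control mean was 1.99% ± 0.334 and the cKO mean 1.90% ± 0.183 (SD, n = 3 each). An exact two-sided permutation test over 20 labelings gave p = 0.7, where the smallest possible p is 0.1.

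The median depth per cell was below that of each other cluster. The median cluster 4 barcode held 12328.5 UMIs and 3313.5 genes, against 14175, 13496, 15517.5 and 13568 UMIs in clusters 0 to 3. By mean it held 12719 UMIs, slightly above the 12553 of cluster 3. In cKO 3 the median was above that of the other barcodes, at 14850.5 against 14341 UMIs, and in the other 5 samples it was below. Sample medians for cluster 4 were 11662, 15155.5 and 12410 UMIs in controls and 12566.5, 11174 and 14850.5 in cKO samples, so the groups overlapped (exact permutation p = 0.8). The median mitochondrial share was 3.92% of UMIs, against 3.78% in the other barcodes. The mean of its sample medians was 4.01% ± 0.526 for controls and 4.14% ± 0.319 for cKO (SD, n = 3 each, exact permutation p = 0.9). Scrublet, a doublet caller run on each library, marked 1 of the 98 barcodes (1.02%) and 151 of all 5160 (2.93%). Of the 9 barcode sequences that occurred in more than 1 library, 0 were in cluster 4. The 98 barcodes together held 1246493 of 73084938 UMIs, from 123837 in cKO 1 to 329844 in control 3.

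The cells carried germ cell markers, with a summed level close to that of the rest. Values here are CPM, the share of a gene in the UMIs summed over barcodes, scaled to 1000000. The 15 germ cell markers summed to 10397 CPM in cluster 4 and 10427 CPM in clusters 0 to 3, and Dppa5a alone made up 4626 CPM of the sum. Gene by gene the markers were more often lower: of 14 measured at 10 CPM or more, 4 were higher and 10 lower, with a median log2 ratio of -0.12. Of all 7188 genes measured at that level 48% were lower, with a median of 0.01. Dazl, Dnd1 and Nanos3, which encode RNA-binding proteins of germ cells, were lower in each of the 6 samples, as were 5.23% of the 7188 genes. Nanos3, which rests on few UMIs in cluster 4, was the 1 marker more than 2-fold lower, at 9.63 against 21.8 CPM. Dnd1 was 155.6 against 225.5 CPM. Dppa5a and Dppa3, markers of early germ cells, stood at 4626 and 2609 CPM in cluster 4 against 4277 and 2646 CPM elsewhere. Dazl was 1058 against 1154 CPM, and Pou5f1, the pluripotency factor, 645.8 against 633.5 CPM.

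Summed markers of other testis cells were low, and only the peritubular myoid sum was above that of the other germ cells. The 9 Sertoli cell markers summed to 14.4 CPM in cluster 4 (6.30 to 27.8 CPM by sample) and 19.5 CPM elsewhere. Of the 6 Leydig cell markers 5 had no UMI, and their sum was 0.802 CPM. The 9 stromal markers also summed to 0.802 CPM, with 8 at 0, among them Dlk1 and Pdgfra. Endothelial markers came to 56.2 CPM, nearly all of it Pecam1 and Egfl7, at 38.5 and 15.2 CPM against 39.5 and 13.4 CPM in the other germ cells. Macrophage, erythroid, peritubular myoid and epithelial lists summed to 4.81, 24.1, 23.3 and 20.1 CPM in cluster 4, against 9.45, 25.2, 21.1 and 32.1 CPM in the rest.

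Rb1, the targeted gene, is too thinly covered in cluster 4 to check the genotype there. It had 2, 1 and 4 UMIs in the cluster 4 barcodes of controls 1 to 3 and 1, 0 and 1 UMI in those of cKO 1 to 3. In clusters 0 to 3 it stood at 10.3, 8.87 and 6.77 CPM in controls and 3.38, 3.79 and 3.57 CPM in cKO samples, with no overlap. The log2 fold change there was -1.26 (SE 0.195, edgeR quasi-likelihood test, adjusted p = 0.391). Rb1 passed the adjusted threshold of 0.05 without the filter on low counts (adjusted p = 0.0208) and without control 3 (adjusted p = 0.0471), and over all alternatives its adjusted p ran up to 0.99999.

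Phlda3 and 1700007K13Rik marked cluster 4, and Mgarp did not. These are the 3 genes given as its markers. Since the clusters were made from the expression of these same cells, every difference between cluster 4 and the other barcodes is a description, given without a test. Phlda3, at chr1:135766119-135769136 of mm10, encodes a small pleckstrin homology protein that restrains Akt and is induced by p53. It stood at 181.0, 239.5 and 166.7 CPM in the cluster 4 barcodes of controls 1 to 3 and at 210.0, 190.7 and 122.4 CPM in those of cKO 1 to 3. The other barcodes of the same samples held 23.9, 28.8, 27.7, 31.8, 25.2 and 19.1 CPM. The lowest cluster 4 value was thus above the highest value elsewhere, and the ratio over all samples was 6.96. Clusters 0 to 3 differed little among themselves, at 23.6, 29.7, 20.1 and 22.8 CPM.

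1700007K13Rik, also called Pierce1 and at chr2:28462001-28466332, encodes a ciliary protein that p53 is known to induce. Its level in cluster 4 was 111.4, 126.1 and 106.1 CPM in controls and 113.1, 102.7 and 52.4 CPM in cKO samples. In the other barcodes it ran from 10.8 to 19.1 CPM over the 6 samples, and the ratio of the sums was 6.74.

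Mgarp, which encodes a mitochondrial protein, was high through a few barcodes. In cluster 4 it had 57 UMIs in 2 of the 98 barcodes: 49 in 1 barcode of cKO 3 and 8 in 1 barcode of control 3. Single barcodes outside cluster 4 reached 34 UMIs in cKO 1 and 30 in control 3. The 45.7 CPM of the cluster therefore describes 2 barcodes, and the cells are called here by their cluster number and by Phlda3.

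To compare single cells at equal depth, each barcode was thinned to 9161 UMIs, the 10th percentile of cluster 4. This kept 88 of the 98 barcodes and 4789 of the 5062 others. Phlda3 had a UMI in 77.3% of the thinned cluster 4 barcodes and in 19.4% of the others, and in 88.8% and 26.4% before thinning. The matching shares for 1700007K13Rik were 62.5% and 11.3%, and 68.4% and 17.1% before thinning. The sorted germ cells held no cell type that should lack these genes, so the level given by free RNA could not be set beside these shares.

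**Figure D1:**
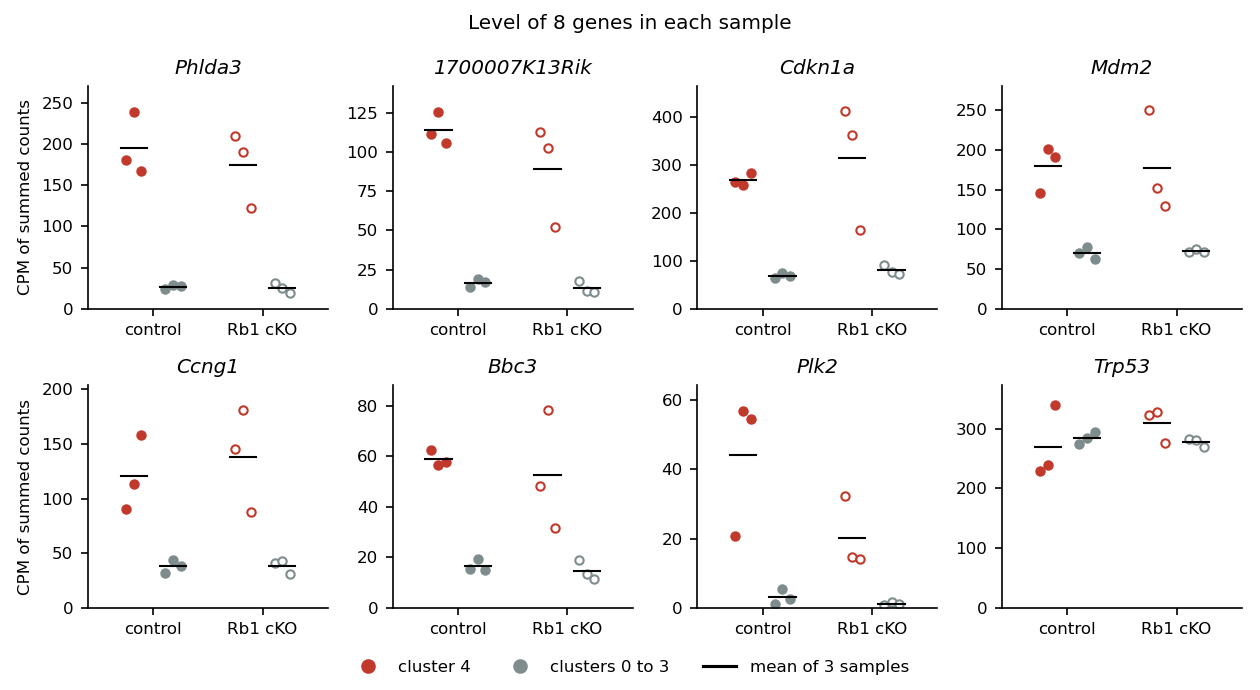
CPM of summed counts of 8 genes in the cluster 4 barcodes (red) and in the barcodes of clusters 0 to 3 (grey) of each control (filled) and Rb1 cKO (open) sample, with black lines for the mean of 3 samples. For the first 7 genes every red point lies above every grey point of the same panel; for Trp53 the 2 sets overlap.

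Genes that led cluster 4 were defined as those with a UMI in at least 25% of its barcodes and a higher CPM than in the other barcodes in each of the 6 samples. This rule was met by 287 genes, of which the 20 with the largest log2 ratio of (CPM + 1) are described. Their ratios on that scale ran from 1.94 to 3.49. Added up, the 20 genes came to 1300 CPM in cluster 4 and 221 CPM elsewhere. They fall into 3 groups by what they are known to do.

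The first group is of genes that p53 is known to induce. Of the 20, 6 are in a list of 46 p53 targets: Plk2, Dcxr, Psrc1, Ddit4l, Btg2 and Sulf2. Psrc1 is a spindle protein, Ddit4l an inhibitor of mTOR signalling and Sulf2 an extracellular sulfatase. Phlda3 and 1700007K13Rik are p53-induced as well but are not in that list. Plk2, a kinase of the polo family, was 20.9, 56.7 and 54.6 CPM in control cluster 4 barcodes and 32.3, 14.7 and 13.98 CPM in cKO ones, while no sample exceeded 5.38 CPM elsewhere. Its 41 UMIs came from 28.6% of the barcodes, and its ratio of 16.3 was the highest of the 20. Btg2, an antiproliferative gene, stood at 118.3, 107.2 and 121.3 CPM in controls and at 113.1, 68.5 and 62.9 CPM in cKO samples, against 12.3 to 21.6 CPM elsewhere. Dcxr, a carbonyl reductase, was 53.8 against 4.94 CPM, with 14.7 CPM as its lowest cluster 4 value (cKO 2) and 90.5 CPM as its highest (control 1).

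The second group is of cell surface and secreted proteins. Cd81, a tetraspanin of the plasma membrane, had the highest level of the 20, at 298.4 against 70.0 CPM. By sample it was 348.1, 371.9 and 282.0 CPM in controls and 411.8, 352.1 and 164.3 CPM in cKO samples, and no other barcodes exceeded 92.1 CPM. Mcam, an adhesion molecule, was 73.8 against 9.81 CPM, and Eng, a co-receptor for TGF-beta ligands, 29.7 against 4.84 CPM. Serpine2, a secreted protease inhibitor, was 34.5 against 7.03 CPM, and Gpx3, a secreted glutathione peroxidase, 44.9 against 7.66 CPM.

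The third group is mixed. It holds the cytoskeletal genes Cald1, a regulator of actomyosin at 44.9 against 4.47 CPM, and Tubb6, a beta-tubulin at 38.5 against 4.25 CPM. It also holds Wdr35, a protein of ciliary transport, Cpt1c, a relative of carnitine palmitoyltransferases, Mlana, a melanosome protein, Frs3, an adaptor of growth factor receptors, and Slc4a11, a membrane transporter. These 5 ranged from 22.5 to 35.3 CPM in cluster 4 and from 4.43 to 8.17 CPM elsewhere.

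More than 2-fold differences were rare among the measured genes. The leading genes were chosen for the largest ratios, so their size beside other genes is set by that choice. Of the 287 genes that met the rule, 65 had a log2 ratio over 1, and 17 of these 65 were in the p53 list. Of the 7188 genes with at least 10 CPM on either side, 33 were in that list. Of the same 7188 genes, 162 (2.25%) were more than 2-fold higher in cluster 4 and 46 were more than 2-fold lower, on the scale of log2 (CPM + 1).

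Most members of the p53 target list were higher in cluster 4 than in the other cells. Of the 46, 42 were higher and 4 lower, 28 by more than 2-fold, and 24 were higher in each of the 6 samples. Over the 18735 genes with a UMI, 38.2% were higher, 2.82% by more than 2-fold, and 2.09% in each of the 6 samples. The median log2 ratio was 1.26 for the list and -0.04 for those 18735 genes. The list is not independent of these cells, because it was chosen with earlier results of the same data known and because the clustering used its members. The 18735 genes include genes without a UMI in cluster 4, which cannot be higher there. Of the 46, 33 reached 10 CPM on either side, and the other 13 rest on few UMIs. Of these 33, 32 were higher, 22 by more than 2-fold, and 24 in each of the 6 samples. Among the 7188 genes measured at that level the shares were 52%, 2.25% and 4.98%.

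**Figure D2:**
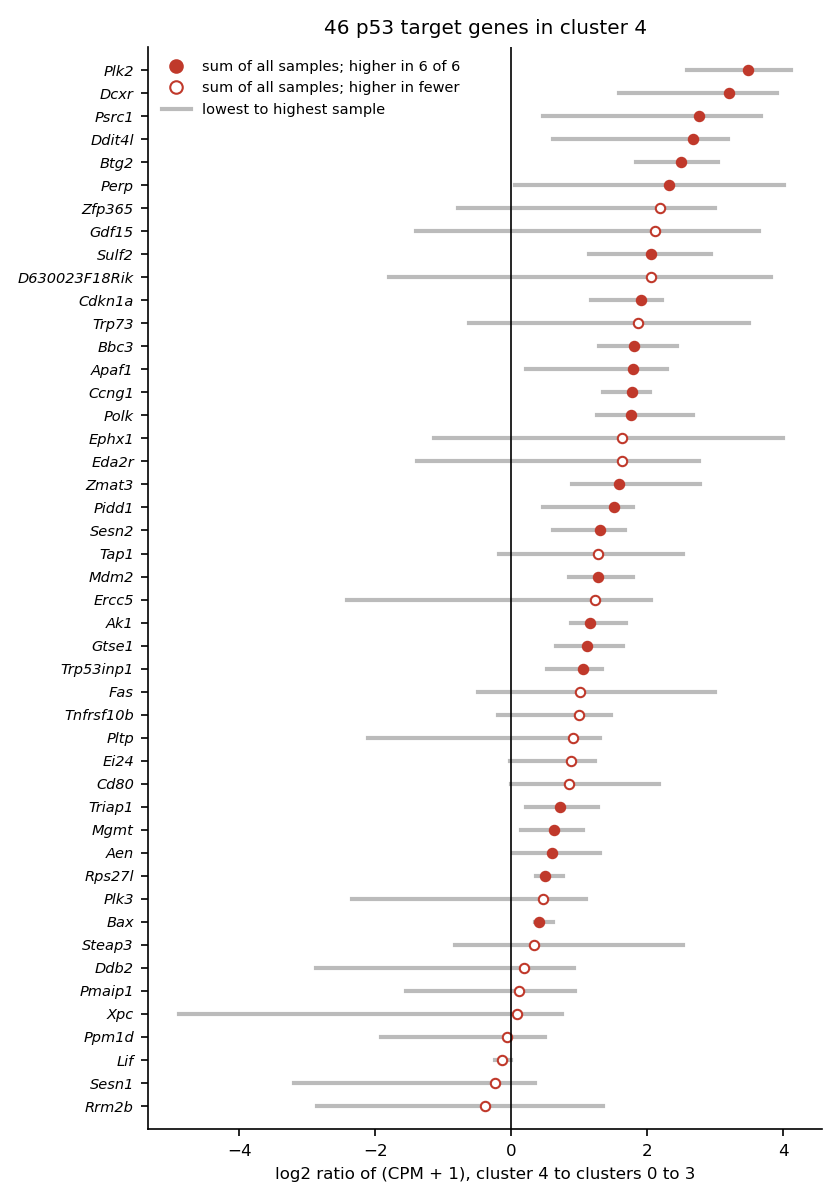
Log2 ratio of (CPM + 1), cluster 4 to clusters 0 to 3, of each of the 46 p53 target genes (points, all samples summed; filled where higher in 6 of 6 samples) with the range from the lowest to the highest sample (grey bars). Of the 46 points 42 lie right of 0, from Plk2 at 3.49 down to Rrm2b at -0.39, and the bars of thinly covered genes are wide.

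Several members are known for cell cycle arrest and growth control. Cdkn1a, the inhibitor of cyclin-dependent kinases also known as p21, lies at chr17:29090976-29100727. In cluster 4 it stood at 264.5, 258.5 and 282.0 CPM in controls and at 411.8, 361.9 and 164.3 CPM in cKO samples. Elsewhere the range was 63.0 to 89.9 CPM, so the cKO samples held both the highest and the lowest cluster 4 value, and all 6 were above every value outside it. Ccng1, a cyclin that feeds back on p53, was 90.5, 113.5 and 157.7 CPM in controls and 145.4, 181.0 and 87.4 CPM in cKO samples, against 31.2 to 43.7 CPM elsewhere. Gtse1, which is expressed in G2 and restrains p53, was 92.3 against 42.1 CPM, and Sesn2, a stress-induced inhibitor of growth signalling, 55.4 against 21.9 CPM.

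Other members act in feedback on p53 and in apoptosis. Mdm2 was 146.2, 201.7 and 191.0 CPM in control and 250.3, 151.6 and 129.3 CPM in cKO cluster 4 barcodes, and 62.7 to 78.1 CPM elsewhere. Its homologue Mdm4, from a list of DNA damage response genes, was 150.8 against 67.4 CPM, again higher in each of the 6 samples. Bbc3, which encodes the pro-apoptotic BH3 protein PUMA, stood at 62.7, 56.7 and 57.6 CPM in controls and at 48.5, 78.3 and 31.5 CPM in cKO samples, against 11.3 to 19.4 CPM. Apaf1, the scaffold of the apoptosome, was 26.5 against 6.96 CPM, and Pidd1, a death domain protein, 19.3 against 6.08 CPM. Zmat3, an RNA-binding p53 target, and Polk, a polymerase that copies past damaged bases, were 24.9 against 7.66 CPM and 22.5 against 5.89 CPM.

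The most abundant members, Rps27l and Bax, were less than 2-fold higher. Rps27l, a ribosomal protein homologue induced by p53, was 2595 against 1838 CPM, and Bax, the pore-forming apoptosis protein, 858.4 against 644.6 CPM. Both were higher in each of the 6 samples, with ratios of 1.41 and 1.33. Some less abundant members differed even less. Pmaip1, another BH3 gene, was 57.0 against 52.6 CPM and higher in 4 of 6 samples, and Xpc, of nucleotide excision repair, 29.7 against 28.0 CPM and higher in 3 of 6. Ppm1d, a phosphatase that acts on p53, was 21.7 against 22.7 CPM. Trp53 itself was 296.0 against 280.8 CPM, and its cluster 4 values of 229.7 to 339.6 CPM spanned those of the other barcodes.

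The list as a whole summed to 5325 CPM in cluster 4, against 3272, 3162, 3190 and 3220 CPM in clusters 0 to 3. Without Rps27l and Bax the sums were 1872 CPM in cluster 4 and 735 CPM elsewhere. By sample the 44 remaining genes gave 2019, 2200 and 1986 CPM in controls and 2309, 1883 and 1286 CPM in cKO samples. The lowest of these, cKO 3, was still above the highest sum outside cluster 4, which was 819 CPM.

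Promoter sequences of these genes were read for p53 response elements, because the genes moved together. The search used the consensus p53 response element, formed by a repeated half-site, with 0 or 1 bases between the half-sites and the C and G of each half-site core required. The element is its own reverse complement, so 1 pass covers both strands. The windows were RefSeq promoters of GRCm38.p6, which is mm10, from 250 bases before to 50 bases after each transcript start. Sequences with at most 1 difference from the consensus are shown, with the element in capitals, because they belong to genes described above. They are written 5′ to 3′ on the gene's strand, and those that reach into the transcript are given as the element alone.
Cdkn1a, chr17:29090908-29090967, plus strand: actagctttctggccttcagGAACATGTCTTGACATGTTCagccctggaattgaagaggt
Ccng1, chr11:40755442-40755501, minus strand: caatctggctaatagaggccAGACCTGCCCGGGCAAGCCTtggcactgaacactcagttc
Rps27l, chr9:66946276-66946335, plus strand: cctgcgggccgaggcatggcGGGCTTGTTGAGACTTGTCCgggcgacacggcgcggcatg
Gtse1, chr15:85859945-85859964, plus strand: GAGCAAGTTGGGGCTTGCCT
1700007K13Rik, chr2:28466285-28466305, minus strand: AGACTTGATCTGGGCTAGTTT

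Counted from the transcript start of the window that held it, the element lies at -51 to -32 in Cdkn1a and -195 to -176 in Ccng1. It lies at -117 to -98 in Rps27l, -1 to 19 in Gtse1 and 20 to 40 in 1700007K13Rik. Cdkn1a, Rps27l and Gtse1 each have another window at a different transcript start, where the best match had 7, 5 and 6 differences. Windows were found for 38 of the 46 p53 list genes, and 4 (10.5%) held such an element. Of the 20 leading genes 17 had a window, and 1 (5.88%), 1700007K13Rik, held an element. Among all 27025 genes with a window, 35 (0.1295%) did. The list was chosen as p53 targets, so its share beside that of all genes says nothing about cluster 4. The windows of Phlda3, Plk2 and Mdm2 held no match this close; their best matches had 5, 5 and 9 differences, and these windows do not reach into introns or distal sites. A match is a description of the letters in the window and was not tested for binding.

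Counted in single cells, most cluster 4 barcodes kept by the thinning had more p53 targets than the median of the others. At 9161 UMIs per barcode, the median cluster 4 barcode had a UMI for 13 of the 46 targets (range 6 to 23), and the median of the others was 7 (range 2 to 17). Of the 88 thinned cluster 4 barcodes, 83 (94.3%) were above 7. Sample medians in cluster 4 were 14, 14.5 and 13 in controls and 14, 12 and 11 in cKO samples, and those of the other barcodes were 7 or 8. A UMI of each of Phlda3, Cdkn1a, Ccng1 and Mdm2 was found in 30 of 88 cluster 4 barcodes (34.1%) and in 110 of 4789 others (2.30%).

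The ranges of cluster 4 and of the other barcodes overlapped from 6 to 17 targets. Outside cluster 4, 1400 of 4789 barcodes (29.2%) were at or above the 10th percentile of cluster 4, which was 8.7 targets. Outside cluster 4, 122 of 4789 barcodes (2.55%) had 13 or more targets, more barcodes than the cluster itself holds. By sample this share was 2.67%, 4.12% and 3.02% in controls and 3.52%, 2.17% and 1.27% in cKO samples. Cluster 4 barcodes therefore lay mostly in the upper part of these counts but did not make up all of it. The clustering used these genes, so that position is a description. Genes of low level can be missed by sampling at this depth. Whether the cells form a continuous range or separate states was not tested.

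**Figure D3:**
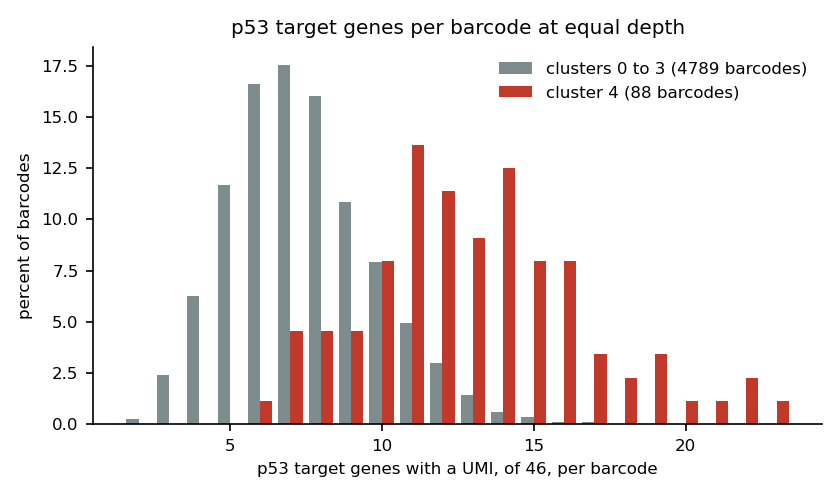
Percent of barcodes (vertical axis) by the number of p53 target genes with a UMI, of 46 (horizontal axis), after each barcode was thinned to 9161 UMIs, for cluster 4 (red, 88 barcodes) and clusters 0 to 3 (grey, 4789 barcodes). The red bars centre on 13 and the grey bars on 7, with overlap between 6 and 17.

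Among the cell cycle lists, cluster 4 was not placed with the cells of least E2F or S phase expression. The 44 E2F targets, which are genes of DNA replication and its nucleotides, summed to 6578 CPM in cluster 4 and to 7133, 4706, 6583 and 6366 CPM in clusters 0 to 3. Replication-dependent histones, made in S phase, summed to 789 CPM, second to cluster 2 at 1056 CPM and above clusters 0, 1 and 3 at 508, 166 and 413 CPM. Of the 17 histone genes measured at 10 CPM or more, 17 were higher than in the other barcodes together and 7 were higher in each of the 6 samples, where 52% and 4.98% of the 7188 measured genes were. Hist1h1b, a linker histone, was 194.9 against 99.6 CPM, and 238.8 CPM in cluster 2. Histone genes have near-identical copies, so counts of a single member are uncertain.

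Genes of late G2 and mitosis were more often lower than higher. The 54 G2/M genes summed to 9048 CPM in cluster 4, between cluster 0 at 8499 CPM and clusters 3, 2 and 1 at 9623, 10370 and 12062 CPM. Of the 53 measured, 34 were lower than in the other barcodes together and 14 were lower in each of the 6 samples, where 48% and 5.23% of the 7188 measured genes were. Cdc20, which activates the anaphase-promoting complex, was 118.7 against 222.1 CPM, with 79.4 CPM in cluster 0 and 433.9 CPM in cluster 1. Cks2, a cyclin-dependent kinase subunit, was 545.5 against 820.6 CPM, and Ube2c, the ubiquitin-conjugating enzyme of mitotic exit, 308.9 against 503.8 CPM. The other 19 were higher, 5 of them in each of the 6 samples: Psrc1, Gtse1, Smc4, Cdk1 and Birc5. Psrc1 and Gtse1, which are also p53 targets, were more than 2-fold higher, at 30.5 against 3.63 CPM and 92.3 against 42.1 CPM. Smc4, a condensin subunit, was 263.1 against 186.4 CPM, and Cdk1, the kinase that drives entry into mitosis, 162.9 against 140.0 CPM.

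Genes lowest in cluster 4 relative to the other barcodes together were taken among those with at least 50 CPM in the other barcodes and a lower CPM in each of the 6 samples. Of the 10 with the smallest log2 ratio, 4 were of this mitotic kind: Nusap1, Cdc20, Hmmr and Ube2c. Nusap1, a spindle protein, was 48.9 against 96.0 CPM. All 4 were highest in cluster 1. In cluster 0 they stood at 56.6, 79.4, 38.9 and 321.0 CPM, against 48.9, 118.7, 40.9 and 308.9 CPM in cluster 4. Low levels of these 4 were thus not particular to cluster 4. The other 6 of the 10 were Eva1b, Hesx1, Arl6ip1, Rabl6, Scfd1 and Tnnt1. Hesx1, a homeobox repressor of early development, was 39.3 against 78.7 CPM, with cluster 4 values from 8.08 CPM in cKO 1 to 73.4 CPM in cKO 2. The log2 ratios of the 10 genes ran from -0.99 to -0.67. The leading genes were chosen without that minimum of 50 CPM, so the sizes of the 2 sets cannot be set against each other.

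The 10 cyclin-dependent kinase inhibitors and pocket proteins summed to 473 CPM in cluster 4 and 275 CPM elsewhere, and the excess was mostly Cdkn1a. Cdkn2a, Cdkn1c and Cdkn2d, other inhibitors, were 83.4, 44.9 and 40.1 CPM against 89.7, 55.7 and 31.8 CPM. Cdkn1b, the inhibitor p27, was 4.01 against 6.12 CPM.

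**Figure D4:**
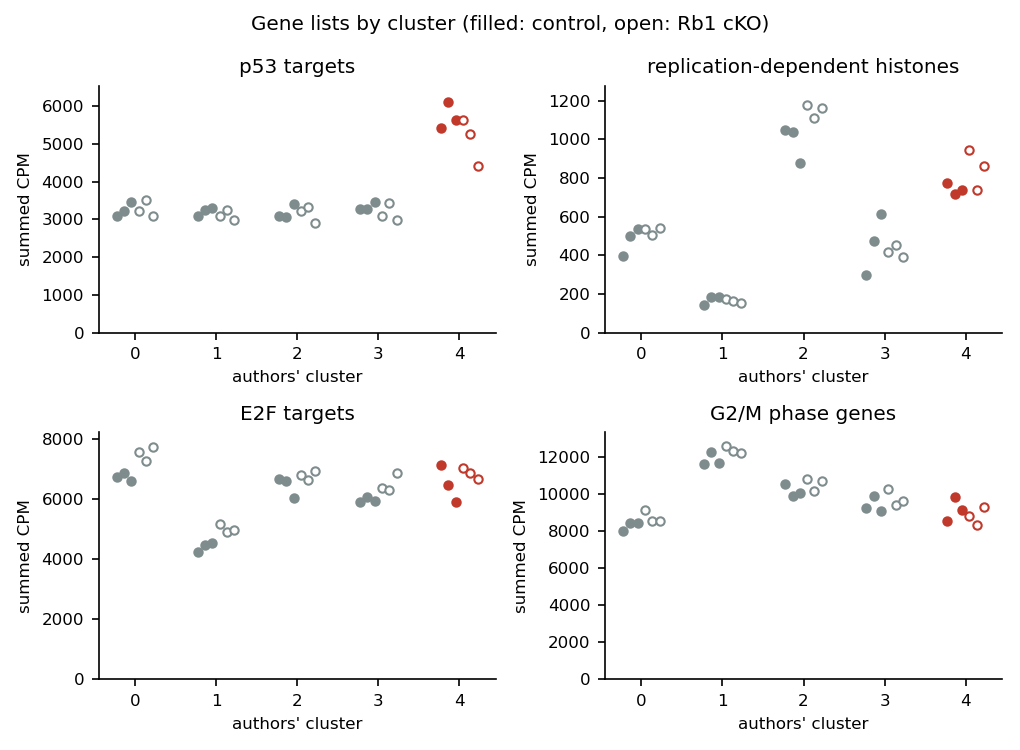
Summed CPM of 4 gene lists (vertical axes) in each of the authors' 5 clusters (horizontal axes), with 1 point for each control (filled) and Rb1 cKO (open) sample and cluster 4 in red. In the p53 panel the 6 points of cluster 4 (4401 to 6121 CPM) lie above all others (up to 3503 CPM), while in the other 3 panels they lie within the range that the other clusters span.

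Other stress and damage lists had smaller median differences than the p53 targets. Among the 7188 measured genes, 52% were higher in cluster 4 and 4.98% were higher in each of the 6 samples. Of the 22 DNA damage response genes, 18 were higher, 3 of them in each of the 6 samples, and the median log2 ratio was 0.08 against 0.01 for the 7188 measured genes. Beside Mdm4 the next highest was H2afx, the histone variant phosphorylated at DNA breaks, at 303.3 against 209.5 CPM. Parp1, the poly-ADP-ribose polymerase, was 296.8 against 341.6 CPM and lower in all 6 samples.

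Of 15 measured apoptosis regulators outside the p53 list, 11 were higher, 2 of them in every sample, again where 52% and 4.98% of the measured genes were. Their median log2 ratio was 0.22. Those 2 were Bid and Dffb: Bid, a BH3 protein, was 35.3 against 23.3 CPM, and Dffb, a nuclease of apoptosis, 12.03 against 3.55 CPM. Of 19 measured genes of the integrated stress response, 10 were higher, close to the 52% of all measured genes, with a median log2 ratio of 0.01. More of the 19 than of all measured genes kept 1 direction in each of the 6 samples. In that sense 5 were higher, where 4.98% of the measured genes were, and 3 were lower, where 5.23% were. The list of 28 summed to 1419 CPM in cluster 4 and 1247 CPM elsewhere. Ddit4, an inhibitor of mTOR signalling that stress induces, was 207.8 against 102.5 CPM and higher in all 6 samples, and Sesn2 of the p53 list stood here too. Hypoxia genes had a median log2 ratio of -0.22 and heat shock and immediate early genes one of 0.00.

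In the lists of germ cell programmes, more measured members were lower than higher, where 48% of the 7188 measured genes were lower. Of pluripotency and primordial germ cell genes 16 of 23 were lower, 4 of them in each of the 6 samples, with a median log2 ratio of -0.20. Male differentiation genes had 10 of 14 lower, with a median of -0.12, and meiosis genes 8 of 15, with a median of -0.08. Of the Nodal pathway, which is active in fetal testis germ cells, Lefty1 and Lefty2, its secreted inhibitors, were lower in all 6 samples, at 158.0 against 249.2 CPM and 208.6 against 246.4 CPM. Lists of glycolysis, nuclear oxidative phosphorylation, mitochondrial transcripts and ribosomal proteins had medians of -0.04, 0.06, 0.05 and -0.02.

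Control and Rb1 cKO samples were compared within cluster 4 on counts summed per sample. Of 2685 genes with enough counts, 0 passed an adjusted p of 0.05 in edgeR's quasi-likelihood test, and DESeq2 also called 0. With no adjustment, p was under 0.05 for 37 genes that were higher in the knockout (1.38% of those tested) and for 69 that were lower (2.57%). The smallest adjusted p was 0.828. Sums of 10 to 27 barcodes per sample held 123837 to 329844 UMIs, and the lowest of the leading genes that passed the filter on low counts, Gpx3, stood at 44.9 CPM. The filter could be met by the samples of either group alone. For genes near its limit, such as Nomo1, Ppp4r2 and Sesn2, the direction can therefore be partly set by the filter. Counts of lower or higher genes that include such genes share this limit.

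The genes with the smallest p in each direction were Nomo1, Ppp4r2 and Nme4, lower in cKO samples, and Pcbp2, Lima1 and Gdi2, higher. Nomo1, part of a membrane protein complex of the endoplasmic reticulum, was 83.5, 63.0 and 78.8 CPM in control and 16.2, 29.3 and 17.5 CPM in cKO cluster 4 barcodes, with no overlap. Its log2 fold change was -1.82 (SE 0.438, edgeR adjusted p = 0.828). In the other barcodes Nomo1 lay between 13.9 and 17.4 CPM in all 6 samples, so its control cluster 4 values stood above both the cKO values and the other cells. Pcbp2, an RNA-binding protein, was 264.5, 245.8 and 206.2 CPM in controls and 371.5, 361.9 and 360.1 CPM in cKO samples, a log2 fold change of 0.62 (SE 0.181, edgeR adjusted p = 0.866).

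Most of the leading genes had lower values in the cKO samples, and 0 of them passed the adjusted test. Of the 20, 8 passed the filter on low counts: 7 were lower in the knockout, 4 of them with an unadjusted p under 0.05, and the median log2 fold change was -0.54. Over all 2685 genes 2.57% were lower at that p, and the median was 0.00. Mcam was 111.4, 94.6 and 94.0 CPM in controls and 40.4, 39.1 and 59.4 CPM in cKO samples, without overlap, a log2 fold change of -1.03 (SE 0.324, edgeR adjusted p = 0.873). Dcxr, Gpx3 and Btg2 had log2 fold changes of -1.09, -1.01 and -0.62, with edgeR adjusted p-values of 0.999. Phlda3, at -0.21 (SE 0.241), and 1700007K13Rik, at -0.45 (SE 0.303), had the same adjusted p.

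The lower values depended on which cKO sample was left out. Summed over the 20 genes, cluster 4 held 1566, 1727 and 1437 CPM in controls and 1502, 1144 and 797 CPM in cKO samples, or 1577 ± 145 and 1148 ± 352 CPM (SD, n = 3 each), and cKO 1 lay within the range of the controls. Without cKO 3, 4 of 7 tested genes were lower and the median was -0.12. Without cKO 1, 12 of 12 were lower and the median was -1.08. In clusters 0 to 3 the sums were 227 ± 24.3 and 231 ± 45.6 CPM, with cKO 3 the lowest of 6 there too, at 193 CPM.

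None of the p53 targets passed the adjusted test between genotypes. Of the 46 members, 17 passed the filter on low counts in cluster 4: 13 were lower in the knockout, 3 with an unadjusted p under 0.05, and the median log2 fold change was -0.18. Of all 2685 genes 1344 were lower, 2.57% of the 2685 at that p, with a median of 0.00. Those 3 were Dcxr and Btg2, which are also among the 20 leading genes, and Sesn2, at 69.6, 82.0 and 66.7 CPM in controls and 40.4, 48.9 and 31.5 CPM in cKO samples. Sesn2 is among the genes near the limit of the filter that were named above. Cdkn1a, Ccng1 and Mdm2 had log2 fold changes of 0.11, 0.05 and -0.14, with SEs of 0.255, 0.288 and 0.247, so these 3 values lay within 1 SE of 0. The list's median was -0.08 without cKO 3 and -0.47 without cKO 1.

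**Figure D5:**
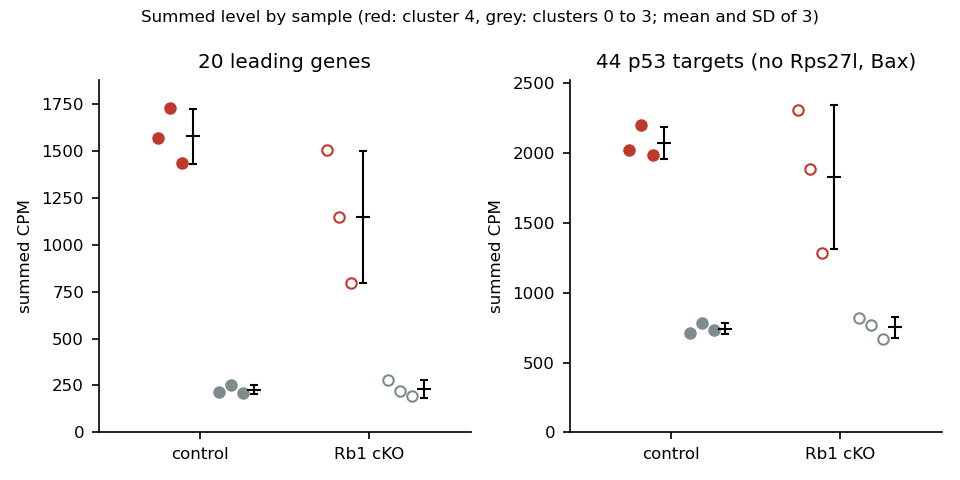
Summed CPM of the 20 leading genes (left) and of 44 p53 targets without Rps27l and Bax (right) in each control (filled) and Rb1 cKO (open) sample, for cluster 4 (red) and clusters 0 to 3 (grey), with the mean and SD of 3 samples beside the points. In cluster 4 the cKO samples spread from 797 to 1502 CPM (left) and from 1286 to 2309 CPM (right), and cKO 3 is the lowest point of each panel's red set.

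Whether the difference between genotypes was itself different in cluster 4 and in the other cells was tested as an interaction, with the sample as a block. Of 10461 genes 0 passed the adjusted threshold in edgeR's quasi-likelihood test, and 0 did in DESeq2. At an unadjusted p under 0.05, 185 (1.77%) moved up and 232 (2.22%) moved down in cluster 4 relative to the rest. Of the 20 leading genes 16 had a lower and 4 a higher interaction value, 8 of the 16 at an unadjusted p under 0.05. Since the interaction compares the same cluster 4 sums with the other barcodes, it does not stand apart from the counts above.

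The smallest interaction p-values belonged to Plk4, Dqx1 and Snx14, higher, and Ska2, Dcaf4 and Nme4, lower. Plk4, the kinase that starts centriole duplication, was 118.3, 63.0 and 63.7 CPM in control and 218.0, 88.0 and 150.3 CPM in cKO cluster 4 barcodes. In the other barcodes Plk4 was 79.0, 77.7 and 143.1 CPM in controls and 87.5, 68.3 and 113.3 CPM in cKO samples, and its interaction was 1.13 on the log2 scale (SE 0.282, edgeR adjusted p = 0.373). Without control 1 Plk4 passed the threshold, at an edgeR adjusted p of 0.00447, and over all alternatives the value ran up to 1. Dqx1 had 11 UMIs in cluster 4, all in cKO 3, and Ska2 had 14, all in controls 1 and 3, so no fold change is given for them. Without control 1, 2 genes were called in this test, and without each of control 2, control 3, cKO 1 and cKO 3 it was 1.

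In clusters 0 to 3, 11514 genes were tested between genotypes with 0 called by edgeR and 0 by DESeq2, and p without adjustment was under 0.05 for 208 higher (1.81%) and 213 lower (1.85%) genes. All 20 leading genes could be tested there: 15 were lower, 2 at that p, and the median log2 fold change was -0.12. Of the 40 tested p53 targets, 26 were lower, 1 at that p, with a median of -0.05.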

How the data were processed

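UMI counts per gene and barcode are the authors' deposited table of whole numbers for 27998 gene symbols; per the submitters' processing notes, the tools were Cell Ranger and Seurat 3.0 and the build mm10. A second deposited file gave each barcode's sample and cluster. No barcode was filtered out. Counts were summed per sample over cluster 4 and over clusters 0 to 3, which gave sums of 123837 to 329844 UMIs for cluster 4. CPM values are shares of those sums, log2 ratios use (CPM + 1) and plain ratios use CPM.

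Genotypes were compared with edgeR 4.0.16 in R 4.3.3 (filterByExpr, TMM, robust quasi-likelihood, two-sided, Benjamini-Hochberg adjustment over all genes tested, threshold 0.05), tested first on simulated data. The interaction used 2 sums per sample with the sample as a block. Single values per sample were compared by exact permutation tests. DESeq2 1.42.0, RLE factors, no filter on low counts, left-out samples, removal of doublets called by Scrublet (scanpy 1.11.5), a minimum of 500 genes and thinning were tried as alternatives. P-values measure the spread between samples, which the labels do not say came from separate animals. Gene positions are from GENCODE M21, promoters from RefSeq.

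The cluster, its markers and all gene lists were chosen with earlier results of these data known. Genes were named by rule: Rb1, the 3 given markers, the 20 leading genes, the 10 lowest genes (at least 50 CPM elsewhere and lower in each sample), the 3 genes of smallest p per direction in each test, the 4 highest genes of a list and the 8 p53 targets of largest ratio. Other members of a list that appear in the text were chosen after their values were seen.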

Additional observations from a re-analysis of the deposited data

How the results depend on the processing

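Within cluster 4, genes called between genotypes numbered 0 under DESeq2, RLE factors, no low-count filter, removal of doublets, a minimum of 500 genes and thinning, and 0 to 1 when each sample was left out. The 1 gene, without control 3, was Gm8730 (log2 fold change -1.88, adjusted p = 9.25e-11). In clusters 0 to 3 the count was 6 without the low-count filter and 0 to 3 with a sample left out (3 without control 3), and in the interaction 0 to 2; the cause was not tested. With a sample left out, the cKO minus control difference in the share of cluster 4 ran from -0.260 to 0.0740 percentage points. That in median UMIs ran from -1206 to 828 (633 without cKO 2), and that in the mitochondrial share from -0.100 to 0.417. These 3 differences changed sign. The exact permutation test could not call them at 0.05, since its smallest possible p is 0.1 with all samples. Log2 fold changes in cluster 4 also changed sign for Phlda3 (-0.328 to 0.0137), Cd81 (-0.39 to 0.17) and Sulf2 (-0.31 to 0.27). Of 300 recomputed ratios of the 20 leading genes, 0 reversed and 24 moved by more than the spread between samples, 17 of them with a pseudocount of 10, where they ran from 1.10 to 2.40. Deviations of same-numbered control and cKO samples correlated at 0.006, 0.096 and 0.084 in cluster 4 and at -0.130, 0.228 and 0.193 in clusters 0 to 3; since not every pair was over 0.1 in either, the numbers were not taken to pair the samples. A replicate block gave 0 calls in cluster 4 (140 genes with an unadjusted p under 0.05) and 0 in clusters 0 to 3 (514 genes). All samples held at least 10 cluster 4 barcodes, so that minimum changed nothing. Of the cluster 4 barcodes, 0 were under 500 genes, so the minimum of 500 genes could not change the comparison within cluster 4 either. The filter on low counts left 8 of the 20 leading genes for the comparison of genotypes; without it 19 of 20 were lower in the knockout (median log2 fold change -0.72), and in DESeq2 18 of 20 (-0.73). For the p53 list the same settings gave 30 of 45 (-0.22) and 29 of 45 (-0.18) lower. Over all 12663 genes the median was 0.02 without the filter and -0.01 in DESeq2. Genes that only these settings added rest on few UMIs, and samples were not left out under these settings.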
